A study of Mus musculus with 18 samples.

Results

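The MHC class II genes of sorted mammary epithelium are described here as 7 genes of 52636 identifiers in the count tables: the invariant chain gene Cd74, the classical chain genes H2-Aa, H2-Ab1 and H2-Eb1, the loading factor genes H2-DMa and H2-DMb1, and the transactivator gene Ciita. They were chosen by name, through their Ensembl identifiers in GENCODE M21, and are set beside Ptprc and Laptm5, a pair of genes of leukocytes. RNA was sequenced from 18 libraries, 6 each of 3 populations sorted by flow cytometry from the glands of 12-week-old nulliparous MMTV-Cre mice without treatment. The populations were hormone-sensing luminal cells (HSL, CD49f-lo/CD61-), alveolar progenitors (AP, CD49f-lo/CD61+) and basal cells (CD49f-hi/CD61+), each numbered as sample 1 to 6. The MMTV-Cre transgene, which expresses the Cre recombinase under the promoter of mouse mammary tumour virus, was carried by the animals of every group, and libraries without it were not analysed here. The sort also stained EpCAM and a lineage panel against CD31, CD45 (the product of Ptprc) and Ter119.

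MHC class II molecules are pairs of an alpha and a beta chain that carry peptides from ingested proteins to the cell surface, where CD4+ T cells read them. Cd74 encodes the invariant chain that holds new pairs until they reach the endosome, the H2-DM pair exchanges its remnant for peptide, and Ciita encodes the coactivator that switches on the whole set. Macrophages, dendritic cells and B cells express the set constitutively, and epithelial cells can be induced to do so by interferon gamma.

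Libraries held 26516293 to 52404937 gene counts in HSL, 37391691 to 62505465 in AP and 29899462 to 91095830 in basal samples. The populations carried their markers: 6 basal markers summed to 30.6 to 157 CPM (counts scaled to the library's total with TMM factors) in HSL, 87.6 to 274 in AP and 22300 to 37900 in basal libraries. Hormone-sensing markers summed to 2830 to 6130, 343 to 1650 and 128 to 336 CPM, and alveolar progenitor markers to 483 to 1120, 2350 to 9830 and 125 to 331 CPM, in HSL, AP and basal libraries. The library of sample 1 stood apart in all 3 populations. Its marker sums were 2830 CPM for hormone-sensing genes in HSL, 2350 CPM for alveolar progenitor genes in AP and 22300 CPM for basal genes in basal libraries, the lowest of each 6. Chi-square per degree of freedom between libraries of a population was 361 to 606 for pairs with HSL sample 1 (other HSL pairs 49.3 to 130), 412 to 577 for pairs with AP sample 1 (others 52.4 to 184) and 277 to 408 for pairs with basal sample 1 (others 57.4 to 175). Results that rest on sample 1 are given with and without it. The labels do not spell out that a number marks 1 animal, nor that the 6 samples of a population came from separate animals, so p-values measure the spread between these samples. Libraries of the same number deviated together in all 18 pairs, as did some pairs of different numbers. The fit with the sample number as a block is given beside the main counts and, where it changes the call, beside the members.

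Promoters of these genes share short motifs, named X and Y boxes, which the RFX and NF-Y complexes are known to bind, and on which the Ciita protein assembles. RefSeq promoter entries (GRCm38.p6) matched 4 of the 7 members, and 3 are shown because H2-Aa and H2-Eb1 moved together across the libraries while H2-DMb1 did not. Each line is the gene's own strand over the 250 bases before its start, at chr17:34287824-34288073 on the minus strand for H2-Aa, and on the plus strand at chr17:34305617-34305866 for H2-Eb1 and chr17:34152941-34153190 for H2-DMb1. Capitals mark matches to GATTGG (Y box), TGACGTCA (X2 box) and the X1 box, which reads CTAGCAACTGATG in H2-Eb1 and CTAGTAACTGATG in H2-DMb1 and was searched with any base allowed at its positions 5 and 9. All were searched on both strands and chosen after the sequences were seen, and no marked matches overlap.
H2-Aa: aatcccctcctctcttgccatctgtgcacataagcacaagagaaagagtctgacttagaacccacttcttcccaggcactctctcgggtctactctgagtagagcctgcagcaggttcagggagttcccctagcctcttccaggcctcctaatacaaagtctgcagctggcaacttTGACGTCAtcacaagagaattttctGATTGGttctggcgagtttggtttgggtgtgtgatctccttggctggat
H2-Eb1: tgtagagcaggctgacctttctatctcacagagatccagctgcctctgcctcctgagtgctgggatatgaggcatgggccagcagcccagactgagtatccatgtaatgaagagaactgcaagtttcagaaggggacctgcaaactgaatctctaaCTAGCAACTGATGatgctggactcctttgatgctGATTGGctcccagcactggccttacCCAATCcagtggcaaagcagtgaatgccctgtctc
H2-DMb1: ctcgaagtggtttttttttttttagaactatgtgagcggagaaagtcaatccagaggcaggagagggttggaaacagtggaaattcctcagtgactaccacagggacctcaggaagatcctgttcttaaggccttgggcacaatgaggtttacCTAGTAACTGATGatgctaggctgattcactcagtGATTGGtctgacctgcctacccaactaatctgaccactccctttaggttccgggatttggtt
The X1 box letters occur in 9 of 32851 RefSeq promoters (0.0274%), H2-Eb1 and H2-DMb1 among them, at 94 to 82 and 97 to 85 bases before the start. In H2-Aa the X2 box stands at 74 to 67 bases before the start, a match found in 1.55% of promoters. The Y box letters, found in 14.6% of promoters, follow at 49 to 44 bases in H2-Aa, 60 to 55 in H2-Eb1 and 62 to 57 in H2-DMb1, and H2-Eb1 has a second match on the other strand. H2-DMa has 2 RefSeq entries, of which 1 holds a Y box match at 199 to 194 bases and neither an X box match. In GRCm38 the RefSeq start of H2-DMb1 lies inside its GENCODE gene, which holds 119 bases of the window shown, and both H2-DMa windows lie wholly inside H2-DMa. These matches describe letters in this window only.

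In GRCm38 the 3 classical chain genes and both loading factor genes lie on chromosome 17, at 34282744 to 34287823 (H2-Aa), 34257689 to 34269419 (H2-Ab1), 34305867 to 34316674 (H2-Eb1), 34119541 to 34139101 (H2-DMa) and 34153072 to 34160230 (H2-DMb1). Cd74 lies on chromosome 18, 60803848 to 60812652, and Ciita on chromosome 16, 10480059 to 10528418. H2-DMa shares 14.8% and H2-Eb1 9.3% of its exon length with other annotated genes, Ciita 71.2% (with Dexi), and the others 0.7% or less. The level of Ciita is uncertain for that reason.

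The invariant chain and the classical chains were highest in basal libraries in nearly every sample. Cd74 measured 7.13 to 612 CPM in HSL libraries (median 28.6), 8.64 to 142 CPM in AP libraries (median 53.1) and 149 to 733 CPM in basal libraries (median 372). The AP and basal ranges did not overlap, while HSL sample 1, at 612 CPM, stood within the basal range and above the next HSL library, at 115 CPM. Cd74 was 1 of 6 tested members without overlap between AP and basal libraries, where 25.9% of all genes tested had none.

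H2-Aa, the alpha chain of the I-A molecule, ran from 2.07 to 179 CPM in HSL (median 7.8), 1.91 to 43.2 in AP (median 13.0) and from 39.9 to 209 in basal libraries (median 112). H2-Ab1, its beta chain, ran from 7.94 to 308 CPM in HSL (median 15.0), 8.32 to 78.9 in AP (median 27.8) and from 63.9 to 353 in basal libraries (median 170). H2-Eb1, the beta chain of the I-E molecule, ran from 2.32 to 160 CPM in HSL (median 6.23), 3.03 to 35.8 in AP (median 11.1) and from 29.2 to 148 in basal libraries (median 92.1). For each of these chains the HSL maximum was sample 1, the lowest AP library was sample 4, and the basal samples 1, 2 and 6 stood above basal samples 3, 4 and 5. Within a sample, Cd74 and H2-Aa were highest in the basal library in 6 of 6 samples. H2-Ab1 and H2-Eb1 were highest in the basal library in 5 of 6, and in the HSL library in sample 1, at 308 and 160 CPM there against 275 and 148 CPM in the basal library.

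The loading factors followed another pattern. H2-DMa, the alpha chain of H2-DM, ran from 21.7 to 31.4 CPM in HSL (median 29.8), 7.08 to 12.4 in AP (median 8.61) and from 6.89 to 22.6 in basal libraries (median 15.7). Its HSL library was the highest of the 3 in 6 of 6 samples, although in sample 1 the HSL and basal libraries were level at 21.7 CPM to the digits printed. The HSL and AP ranges did not overlap, which held for 1 of 6 tested members and 20.6% of all genes tested. In basal libraries, samples 1, 2 and 6 stood at 21.7, 22.6 and 21.1 CPM and samples 3, 4 and 5 at 6.89, 8.31 and 10.3 CPM. H2-DMb1, the beta chain, was the flattest member, with 22.1 to 33.0 CPM in HSL, 12.8 to 35.4 in AP and 21.4 to 49.6 in basal libraries, and its ranges overlapped throughout.

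Ciita was near the limit of detection. HSL libraries held 15 and 4 reads in samples 1 and 2 and 0 in the other 4, where 0 reads allow a level of up to 0.0661 to 0.123 CPM (3 counts, counting error only). AP libraries held 0 to 9 reads and basal libraries 4 to 30, or 0.0757 to 0.337 CPM. Ciita failed the filter on low counts and was not tested, so 6 of 7 members enter the counts below.

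**Figure D1:**
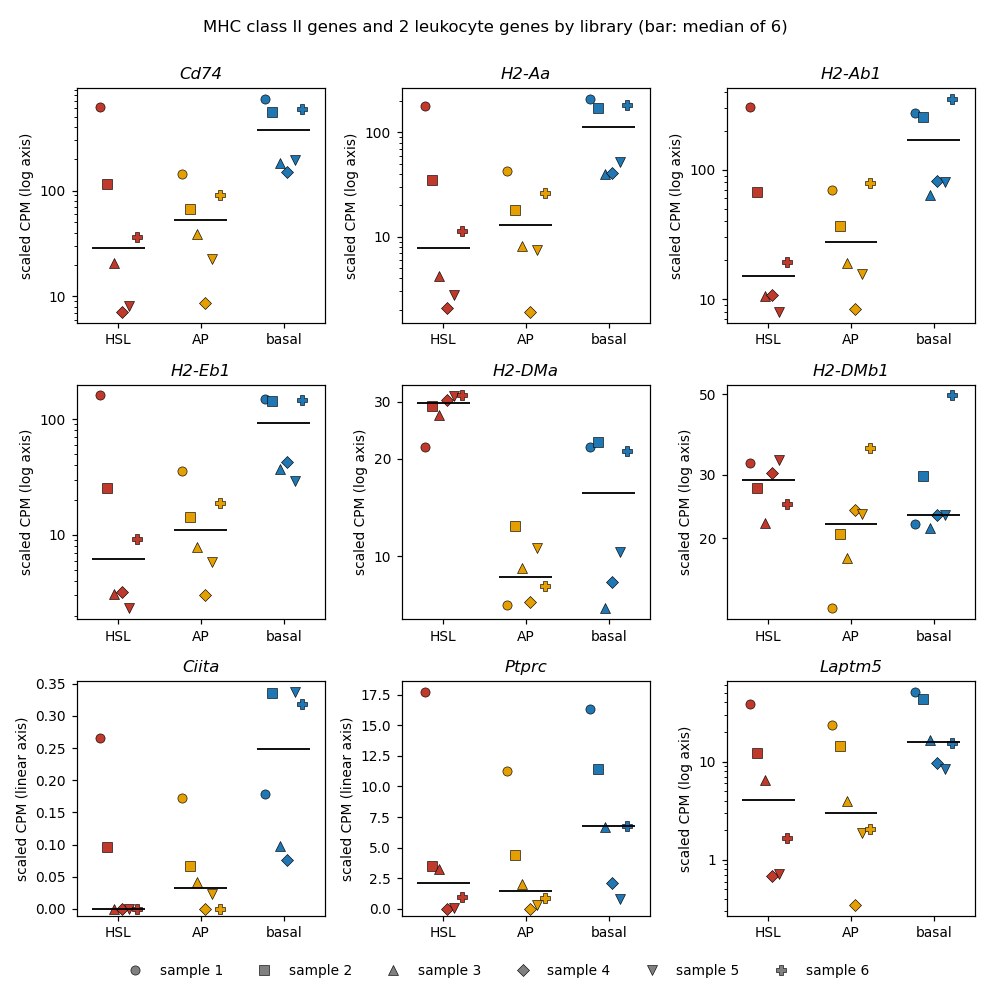
Scaled CPM of the 7 class II genes and of Ptprc and Laptm5 in each library, by population, with marker shapes for sample numbers 1 to 6 and a bar at the median of 6 libraries; axes are logarithmic except for Ciita and Ptprc. Cd74 and the classical chains are highest in basal libraries and in HSL sample 1, H2-DMa is highest in HSL libraries, and H2-DMb1 is nearly level.

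Levels were also divided by the merged exon length in GENCODE M21, a rough scale on which the order of genes depends on the annotation. The gene widths listed with the counts differ from the GENCODE spans for H2-DMa (3920 and 19561 bases), H2-Ab1 (6210 and 11731) and Ciita (39387 and 48360), among others. Per kilobase of exon, Cd74 averaged 79.4 ± 142 CPM in HSL, 36.8 ± 29.4 in AP and 238 ± 151 in basal libraries (SD, n = 6 each). In basal libraries it was followed on this scale by H2-Ab1 (72.1 ± 48.5), H2-Eb1 (46.6 ± 30.6), H2-Aa (30.6 ± 21), H2-DMb1 (16.8 ± 6.5), H2-DMa (4.40 ± 2.15) and Ciita (0.0235 ± 0.0127). Neighbours from H2-Ab1 to H2-DMb1 in that order differed by less than the larger of their SDs. In HSL libraries the means per kilobase were 27.5 ± 46.1 for H2-Ab1, 17.4 ± 32 for H2-Eb1, 16.9 ± 2.55 for H2-DMb1, 10.3 ± 18.3 for H2-Aa and 8.29 ± 1.07 for H2-DMa. That order turned without sample 1, where the HSL means per kilobase were 16.4 ± 2.55 for H2-DMb1, 9.0 ± 9.68 for H2-Ab1, 8.69 ± 0.485 for H2-DMa, 4.47 ± 5.08 for H2-Eb1 and 2.91 ± 3.63 for H2-Aa, below Cd74 at 22.4 ± 26.8 (SD, n = 5). Not scaled for length, the HSL means without sample 1 were 37.6 ± 45.1 CPM for Cd74, 11.1 ± 13.8 for H2-Aa, 23.1 ± 24.9 for H2-Ab1 and 8.70 ± 9.88 for H2-Eb1. The H2-DM genes moved little, to 30.0 ± 1.67 CPM for H2-DMa and 27.6 ± 4.29 CPM for H2-DMb1.

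The 4 genes of the invariant and classical chains moved together from library to library. Their pairwise Pearson correlations over 18 libraries were 0.98 to 0.99 for log2 CPM, and 0.97 to 0.99 after population means were subtracted. The 8 pairs of a chain with an H2-DM gene gave -0.06 to 0.26, and the H2-DM pair itself 0.48. The libraries share sample numbers and populations, so these are descriptions. Read counts of H2-Aa were 0.203 to 0.342 of those of Cd74 in HSL, 0.21 to 0.331 in AP and 0.219 to 0.312 in basal libraries.

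H2-Ab1 and H2-Eb1 departed further from such a fixed proportion, with their highest ratios in sample 4. Counts of H2-Ab1 were 1.71 to 5.16 times those of H2-Aa in HSL (median 2.21), 1.62 to 4.36 times in AP (median 2.2) and 1.31 to 2.01 times in basal libraries (median 1.57). Counts of H2-Eb1 were 0.147 to 0.448 of those of Cd74 in HSL, 0.201 to 0.351 in AP and 0.149 to 0.286 in basal libraries. Sample 4 gave the highest value of both ratios in all 3 populations. Counts of H2-DMa were 0.122 to 14.7 times those of H2-Aa in HSL, 0.164 to 3.77 times in AP and 0.104 to 0.202 times in basal libraries. H2-DMa reads outnumbered H2-Aa reads in 4 of 6 HSL libraries, in 3 of 6 AP libraries and in 0 of 6 basal libraries. Against its own partner H2-DMb1, H2-DMa stood at 0.673 to 1.26 in HSL, 0.228 to 0.601 in AP and 0.323 to 0.989 in basal libraries.

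**Figure D2:**
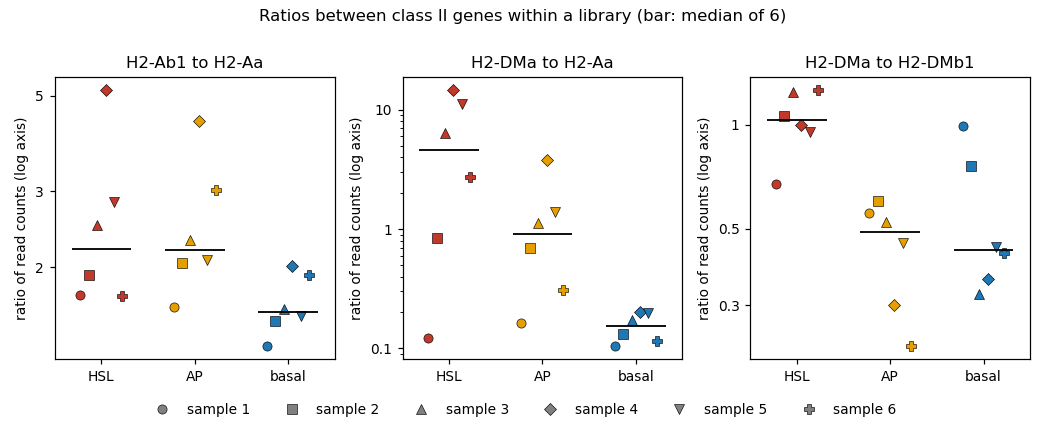
Ratio of read counts between class II genes within each library on log axes, by population, with marker shapes for the sample numbers and a bar at the median of 6. The ratio of H2-DMa to H2-Aa spans 0.122 to 14.7 in HSL but only 0.104 to 0.202 in basal libraries.

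In the comparison of alveolar progenitors with basal cells, the invariant chain and all 3 classical chains were lower in AP libraries, and H2-DMa was lower by less. Cd74 averaged 61.8 ± 49.4 CPM in AP and 400.0 ± 254 CPM in basal libraries (SD, n = 6 each), a log2 fold change of -2.69 ± 0.97 (SE; edgeR quasi-likelihood test with Benjamini-Hochberg adjustment over all genes, adjusted p = 0.0307). It was lower in the AP library of all 6 samples. H2-Aa averaged 17.5 ± 15.2 and 116 ± 79.8 CPM (-2.74 ± 1.0, edgeR adjusted p = 0.0332), H2-Ab1 38.1 ± 29.8 and 185 ± 125 CPM (-2.28 ± 0.87, 0.0407) and H2-Eb1 14.3 ± 12.0 and 90.6 ± 59.6 CPM (-2.67 ± 0.96, 0.0307) in AP and basal libraries. H2-DMa averaged 9.08 ± 2.08 and 15.2 ± 7.4 CPM (-0.74 ± 0.27, 0.0333) and was lower in AP in 4 of 6 samples. H2-DMb1, at 22.2 ± 7.63 and 28.2 ± 10.9 CPM, did not pass (-0.34 ± 0.23, 0.256). So 5 of 6 tested members were called, all lower in AP, where 44.7% of all genes were called and 23.1% were called lower; the members' median log2 fold change was -2.47, against -0.001 for all genes tested.

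With the sample number as a block the same 5 members were called in AP against basal, with adjusted p from edgeR of 0.00019 to 0.000736 for the chains and 0.0477 for H2-DMa, where 55.1% of all genes were called and 28.4% called lower. Without sample 1 the 4 chain genes were called and H2-DMa was not (-0.54 ± 0.29, edgeR adjusted p = 0.13), where 50.8% of all genes were called and 25.7% called lower. The block without sample 1 also left 4 called (58.3% of all genes), and samples 4 to 6 alone 3 (47.5%). The calls without a block depended on single samples. By edgeR 0 members were called without sample 2 and 0 without sample 6 (4 at an unadjusted p under 0.05 each time), 1 without sample 3 and 2 without sample 5, while the log2 fold change of Cd74 was -2.61, -2.66, -2.70 and -2.66. DESeq2 called 5 with all samples. Ptprc and Laptm5 averaged 3.16 ± 4.3 and 7.71 ± 9.33 CPM in AP and 7.36 ± 5.79 and 24.1 ± 18.5 CPM in basal libraries. Their log2 fold changes were -1.22 ± 1.21 (edgeR adjusted p = 0.442) and -1.64 ± 0.99 (0.191), and with the block -2.28 ± 0.67 (0.0106) and -2.47 ± 0.44 (0.000358).

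In the comparison of hormone-sensing cells with basal cells, H2-DMa was higher in HSL libraries, and the outcome for the other chains turned on sample 1. H2-DMa averaged 28.6 ± 3.68 CPM in HSL and 15.2 ± 7.4 CPM in basal libraries, was higher in 6 of 6 samples (level at 21.7 CPM in sample 1 to the digits printed) and had a log2 fold change of 0.92 ± 0.27 (edgeR adjusted p = 0.00739). Of the 6 tested members this 1 was called, where 58.4% of all genes were called and 27.8% were called higher in HSL. Cd74 averaged 133 ± 238 and 400.0 ± 254 CPM in HSL and basal libraries (-1.58 ± 0.93, edgeR adjusted p = 0.156), and was lower in HSL in 6 of 6 samples. The values were -1.57 ± 0.96 (0.171) for H2-Aa, -1.39 ± 0.85 (0.17) for H2-Ab1 and -1.42 ± 0.92 (0.198) for H2-Eb1. H2-DMb1 averaged 28.3 ± 4.29 and 28.2 ± 10.9 CPM (0.01 ± 0.23, 0.976). Libraries of HSL and basal cells overlapped for all 6 tested members, where 36.9% of all genes tested had no overlap.

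Without sample 1, Cd74 and the 3 classical chains were called lower in HSL than in basal libraries, at log2 fold changes of -3.16 ± 0.80, -3.16 ± 0.84, -2.87 ± 0.74 and -3.20 ± 0.74 (edgeR adjusted p = 0.00138 to 0.00381), where 64.7% of all genes were called and 34.5% called lower. With all samples and the sample number as a block they were called too, at -3.01 ± 0.54, -2.93 ± 0.53, -2.33 ± 0.50 and -2.77 ± 0.52 (adjusted p = 0.000242 to 0.000974), where 67.3% of all genes were called and 35.5% called lower. With H2-DMa, 5 members were called in each case, as with the block without sample 1 (69.9% of all genes) and with samples 4 to 6 alone (60.7%). H2-DMa remained higher in both, by 1.10 ± 0.29 without sample 1 and 1.01 ± 0.27 with the block. Laptm5 with the block was at -2.34 ± 0.45 (edgeR adjusted p = 0.00042) and Ptprc at -2.18 ± 0.68 (0.0114), and without sample 1 neither passed (0.0518 and 0.182).

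Between the luminal populations, only H2-DMa differed among the tested members. It was 3.15-fold higher in HSL, at 28.6 ± 3.68 CPM against 9.08 ± 2.08 CPM in AP libraries (log2 1.65 ± 0.28, edgeR adjusted p = 0.000124), in 6 of 6 samples and without overlap between the libraries. This was 1 of 6 tested members called, where 39.9% of all genes were called and 19.8% were called higher in HSL. The chains and Cd74 had log2 fold changes of 0.89 to 1.25 (adjusted p = 0.3 to 0.426), which became -0.02 to 0.09 with the sample number as a block and -0.47 to -0.17 without sample 1, so no direction can be given for them. H2-DMb1 was at 0.35 ± 0.23 (0.25). H2-DMa was also the 1 called member with the block (50.8% of all genes called), without sample 1 (48.0%), with both (54.2%), with samples 4 to 6 alone (43.8%) and with the leukocyte term described below (44.0%).

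**Figure D3:**
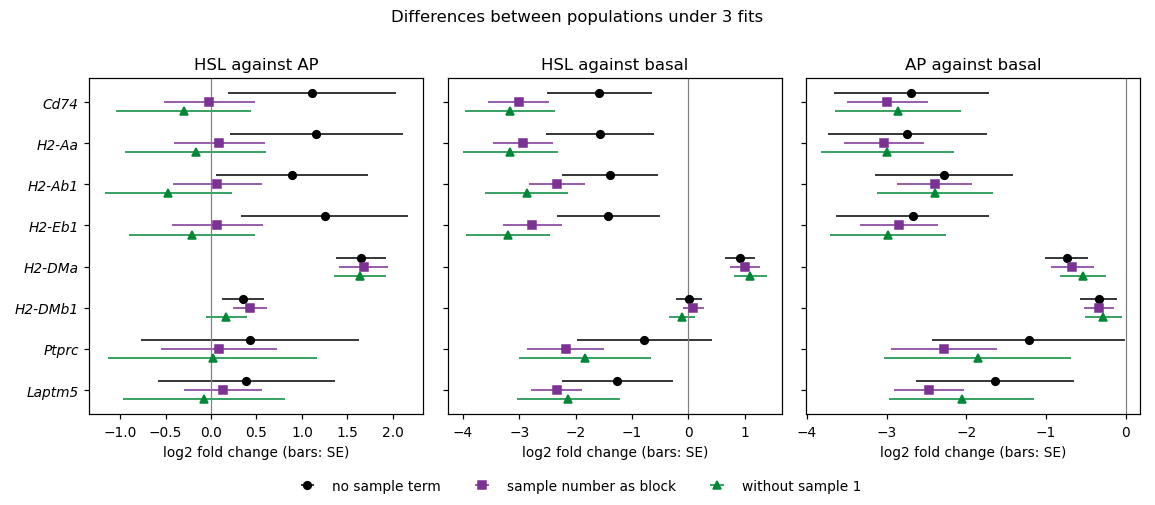
Log2 fold changes with SE for HSL against AP, HSL against basal and AP against basal libraries, with no sample term, with the sample number as a block and without sample 1. The chains move from -1.39 to -1.58 down to -2.87 to -3.20 in HSL against basal when sample 1 is left out, while H2-DMa stays near 1.

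Within each population the class II chains tended to be higher where the leukocyte genes were, although no relation passed adjustment. The level of Ptprc plus Laptm5 ran from 0.683 to 56.5 CPM in HSL, 0.363 to 35.1 in AP libraries and 9.14 to 67.6 in basal libraries, and was highest in sample 1 of each population. Pearson's r of log2 Cd74 with their mean log2 level was 0.92 in HSL (Spearman's rho 0.94), 0.87 in AP (0.83) and 0.80 in basal libraries (0.60), over 6 libraries each. Exact permutation p values for Pearson's r were 0.00833, 0.0278 and 0.0861, or 0.0778, 0.0778 and 0.151 after adjustment over 21 relations, of which 0 passed 0.05 and 10 had an unadjusted p under it. Without the 2 libraries farthest from the median leukocyte level, r was 0.79 in HSL, 0.44 in AP and 0.73 in basal libraries. The chains gave r of 0.68 to 0.88. Without those 2 libraries H2-Aa, H2-Ab1 and H2-Eb1 gave 0.65, 0.67 and 0.60 in HSL, 0.27, 0.14 and 0.39 in AP and 0.68, 0.55 and 0.65 in basal libraries, so in AP the relation rests on samples 1 and 4. H2-DMa gave -0.82 in HSL (exact permutation p = 0.0194, adjusted 0.0778), 0.20 in AP and 0.67 in basal libraries, and H2-DMb1 gave -0.64 to 0.12.

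**Figure D4:**
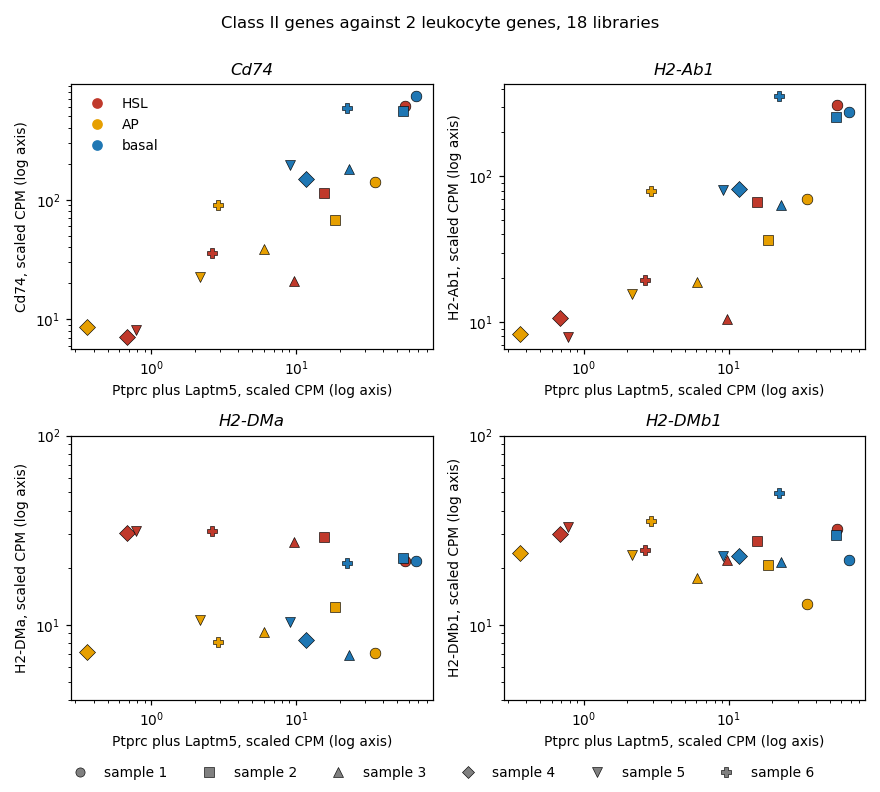
Scaled CPM of Cd74, H2-Ab1, H2-DMa and H2-DMb1 against the summed CPM of Ptprc and Laptm5 in 18 libraries, both axes logarithmic, coloured by population with marker shapes for sample numbers. Within a population r was 0.80 to 0.92 for Cd74 and 0.68 to 0.84 for H2-Ab1; for H2-DMa it was 0.67 in basal but -0.82 in HSL libraries, which keep that gene at 21.7 to 31.4 CPM.

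Set against Ptprc plus Laptm5 within each library, no difference between populations passed adjustment. The ratio of Cd74 to the summed CPM of both genes was 2.14 to 13.3 in HSL (median 9.29), 3.58 to 30.3 in AP (median 8.24) and 7.85 to 26.3 in basal libraries (median 11.7). For H2-Ab1 it was 1.09 to 13.8 in HSL, 1.95 to 26.3 in AP and 2.76 to 15.7 in basal libraries. The mean log2 ratio of Cd74 differed by -0.58 in AP against basal libraries (exact two-sided permutation test, p = 0.325, adjusted 0.624) and by -0.82 in HSL against basal libraries (p = 0.106, adjusted 0.518). H2-DMa was 0.385 to 38.9 times that level in HSL and 0.302 to 1.12 times in basal libraries, a difference of 3.34 on the log2 scale (exact two-sided permutation p = 0.0152, adjusted 0.318). Of 21 such tests 0 passed an adjusted p of 0.05 and 1 had an unadjusted p under it, and the smallest p that 6 against 6 libraries allow is 0.00216. That test takes the libraries as unpaired. Within sample numbers, the Cd74 ratio was higher in the HSL than in the basal library in 0 of 6 samples. The ratios of H2-DMa and H2-DMb1 were higher in the HSL than in the basal library in 6 of 6, as was that of H2-DMb1 in AP set against basal and that of H2-DMa in HSL set against AP libraries. An exact two-sided sign-flip test over the 6 pairs gave each of these 5 p = 0.0312, the smallest that 64 flips allow. After adjustment over 21 tests, those of Ciita included, it was 0.0938, so 0 of 21 passed and 7 had an unadjusted p under 0.05. The other 2 of the 7 were Ciita, whose ratio is set by the 0.1 CPM pseudocount where it had 0 reads and is not read here. For any of the 21 to pass, most would have had to reach the smallest p, so the adjusted sign-flip result cannot decide. A p above the threshold does not show that the ratios were equal.

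When the leukocyte level was added as a term to the edgeR fit, 0 of 6 tested members were called in AP against basal libraries (1 at an unadjusted p under 0.05; Cd74 -1.12 ± 0.52, adjusted p = 0.089), where 44.7% of all genes were called. In HSL against basal libraries Cd74 was called lower (-1.30 ± 0.48, adjusted p = 0.0279) and H2-DMa higher (1.02 ± 0.32, 0.0112), where 57.5% of all genes were called. The difference in H2-DMa between HSL and AP was 1.67 ± 0.28 (0.000124). In libraries from sorted bulk cells, fewer cells of a type and less RNA per cell cannot be told apart.

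Class II reads were also present where Ptprc was all but missing. HSL sample 4 had 0 Ptprc reads and 31 Laptm5 reads, beside 324 reads of Cd74, 485 of H2-Ab1 and 1379 of H2-DMa. AP sample 4 had 1 Ptprc and 22 Laptm5 reads, beside 547 of Cd74, 527 of H2-Ab1 and 456 of H2-DMa. Both were the lowest libraries of their population for Cd74, at 7.13 and 8.64 CPM. They also held reads of macrophage genes, 162 of Lyz2 and 78 of C1qb in HSL sample 4 and 248 and 123 in AP sample 4. The ratio of Cd74 to Ptprc plus Laptm5 was 9.24 in HSL sample 4 (HSL median 9.29) and 18.9 in AP sample 4 (AP median 8.24). Which cells gave the class II reads was not tested.

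Immune marker lists are set beside the chains here. Of 13 pan-leukocyte genes, 1 was lower and 1 higher in AP libraries set against basal ones, where 44.7% of all genes were called. With the sample number as a block 10 were lower there (28.4% of all genes lower). In HSL against basal libraries 1 was lower and 2 higher (58.4% of all genes called), and again 10 were lower with the block (35.5% of all genes lower). Their summed level was 244 to 386 CPM in HSL, 89.6 to 179 in AP and 73.0 to 277 in basal libraries, and was carried in HSL by Lcp1 and Ptpn6, at means of 200 and 52.5 CPM against 20.4 and 19.8 CPM in basal libraries. Of 18 tested macrophage and dendritic cell genes 8 were lower and 0 higher in AP libraries set against basal ones, where 23.1% of all genes were called lower, and 10 lower and 0 higher in HSL libraries set against basal ones, where 30.6% were. With the block 11 were lower in AP (28.4% of all genes) and 14 in HSL (35.5%), both against basal libraries, and 0 were higher. That list summed to 13.6 to 306 CPM in HSL, 79.8 to 194 in AP and 184 to 674 in basal libraries. C1qb, a complement component made by macrophages, averaged 6.38 ± 7.41 in HSL, 6.11 ± 3.35 in AP and 50.8 ± 31.5 CPM in basal libraries (AP against basal -3.06 ± 0.65, edgeR adjusted p = 0.000794). Lyz2, encoding lysozyme, averaged 31.1 ± 32.9 in HSL, 29.6 ± 25.8 in AP and 131 ± 71.8 CPM in basal libraries (AP against basal -2.15 ± 0.79, edgeR adjusted p = 0.0328). In HSL against basal libraries Ccr7, Itgax, Flt3 and Xcr1 of that list had positive log2 fold changes, and its other tested genes negative ones. The values were 1.06 ± 1.66, 0.99 ± 1.18, 0.99 ± 1.02 and 2.26 ± 1.22. None passed (edgeR adjusted p = 0.123 to 0.606). All were highest in HSL sample 1, where Itgax stood at 11.6 and Xcr1 at 4.8 CPM. Without sample 1 Ccr7, Itgax and Flt3 turned to -1.45, -0.65 and -0.7, and Xcr1 was not tested. Itgam and the B cell gene Ms4a1 are listed at 0 in all libraries, and other annotated genes cover 99.9% and 100% of their spans.

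B cell genes summed to 0.022 to 38.0 CPM in HSL, 0.0474 to 88.9 in AP and 2.73 to 69.1 in basal libraries, and 4 of 8 were tested. Without the block edgeR and DESeq2 called 0 of them in each comparison (1 at an unadjusted p under 0.05 in AP against basal libraries), and with it 1 was lower in AP and 4 in HSL than in basal libraries (28.4% and 35.5% of all genes lower). Of all genes, edgeR without the block called 44.7%, 58.4% and 39.9% in AP against basal, HSL against basal and HSL against AP libraries. T cell genes summed to 1.52 to 11.4, 0.758 to 17.4 and 4.55 to 14.0 CPM in HSL, AP and basal libraries, and edgeR called 0 of 8 without the block (1 at an unadjusted p under 0.05 and 1 by DESeq2, both in HSL against basal libraries). With the block 1 was lower in AP and 1 in HSL than in basal libraries (28.4% and 35.5% of all genes lower). Endothelial genes were lower in 8 of 8 in AP (23.1% of all genes lower) and 7 of 8 in HSL (30.6%) against basal libraries, at sums of 56.3 to 111, 29.7 to 79.5 and 75.0 to 234 CPM in HSL, AP and basal libraries. Fibroblast genes summed to 40.3 to 111, 616 to 1580 and 692 to 1100 CPM in HSL, AP and basal libraries. In AP libraries set against basal ones 4 of 7 were higher (5 with the block) and 1 lower, where 44.7% of all genes were called (55.1% with the block). In HSL 7 of 7 were lower than in basal libraries (30.6% of all genes lower) and than in AP libraries (39.9% of all genes called in either direction). The part of these cell types in the class II levels was not tested.

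**Figure D5:**
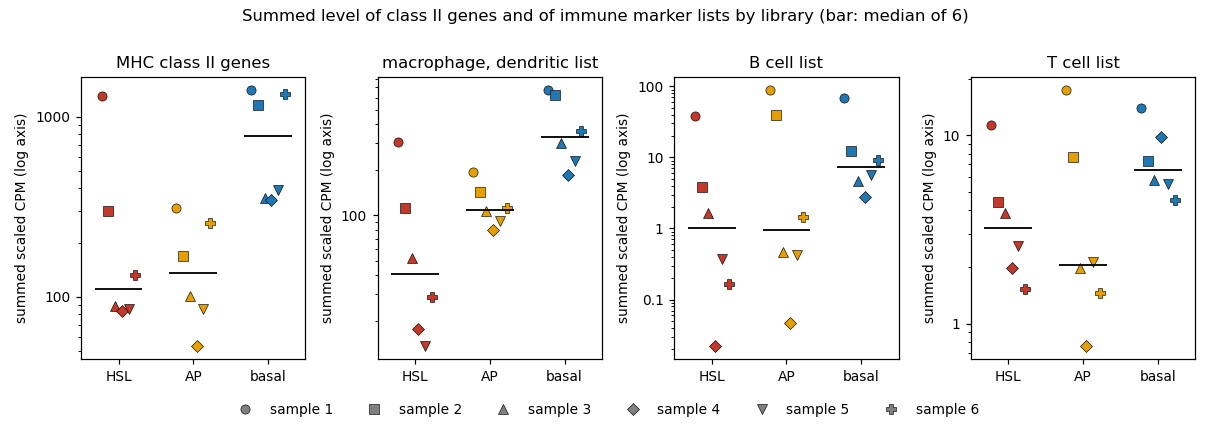
Summed scaled CPM of the 7 class II genes, 19 macrophage and dendritic cell genes, 8 B cell genes and 8 T cell genes in each library on log axes, by population, with marker shapes for the sample numbers and a bar at the median of 6. Sample 1 is the highest library of its population in every panel, and the class II sum reaches 1310 CPM in its HSL library.

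Over 10726 genes at a mean of 5 CPM or more, those whose log2 CPM followed the members' mean profile most closely over 18 libraries were Plbd1 (Pearson r = 0.887), Cd83 (0.861), C1qb (0.854), C1qc and C1qa (both 0.84), Ctss (0.837), Plek (0.829), Tyrobp (0.827), Pf4 (0.82) and Abracl (0.819). After population means were subtracted, Retnla (0.925) and C1qb (0.918) led, ahead of C1qa (0.876), C1qc (0.854), Lysmd2 (0.845), Ccl8 (0.844), Ifi27l2a (0.827), Pf4 (0.826), Ncoa7 (0.824) and Ctss (0.815). Ctss encodes cathepsin S, the protease that trims the invariant chain. It averaged 8.34 CPM in HSL, 5.89 in AP and 23.6 in basal libraries and did not pass the test (AP against basal -2.0 ± 0.86, edgeR adjusted p = 0.0669; 0.000527 with the block).

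The genes that control the class II set were called in both directions and, without the block, no more often than all genes. Of 7 genes of the complexes on the X and Y boxes, 1 was higher and 2 lower in AP libraries set against basal ones, 1 higher and 3 lower in HSL libraries set against basal ones, and 1 lower in HSL than in AP libraries. Of all genes, 44.7%, 58.4% and 39.9% were called in these comparisons. With the block, 2 were higher in AP against basal and 3 lower in HSL against AP libraries, where 55.1% and 50.8% of all genes were called. Rfxap, a subunit of the RFX complex, averaged 16.9 CPM in HSL, 36.6 in AP and 39.9 in basal libraries (HSL against basal -1.24 ± 0.11, edgeR adjusted p = 1.46e-08). Rfxank, another subunit, averaged 14.2, 19.0 and 10.2 CPM in HSL, AP and basal libraries (AP against basal 0.89 ± 0.17, 0.000311), although it shares 53.7% of its exon length with Nr2c2ap. Nfyb, of the NF-Y complex, was lower in AP (-0.61 ± 0.13, 0.00113) and in HSL (-0.76 ± 0.13, 8.97e-05), both against basal libraries. Creb1, whose product binds the X2 box, averaged 47.6, 49.1 and 66.8 CPM in HSL, AP and basal libraries (HSL against basal -0.49 ± 0.15, 0.00773).

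Interferon gamma signalling genes went both ways, with more lower than higher in HSL against basal libraries. Of 15 tested, 3 were higher and 3 lower in AP libraries set against basal ones, 3 higher and 9 lower in HSL libraries set against basal ones, and 3 higher and 4 lower in HSL than in AP libraries. The shares of all genes called were 44.7%, 58.4% and 39.9%. In HSL against basal libraries 27.8% of all genes were called higher and 30.6% lower. With the block, 5 were higher and 6 lower in AP against basal, 4 higher and 9 lower in HSL against basal, and 3 higher and 5 lower in HSL against AP libraries. The shares of all genes were then 55.1%, 67.3% and 50.8%, with 31.8% higher and 35.5% lower in HSL against basal libraries. Irf1, a transcription factor induced by interferon gamma that acts on Ciita, averaged 110 CPM in HSL, 60.1 in AP and 340.0 in basal libraries (AP against basal -2.5 ± 0.18, edgeR adjusted p = 4.22e-09; HSL against AP 0.87 ± 0.18, 0.000726). Socs1, an inhibitor of the pathway, averaged 5.89, 6.24 and 32.2 CPM in HSL, AP and basal libraries. The kinase gene Jak2 averaged 270.0, 104 and 62.6 CPM in HSL, AP and basal libraries (HSL against AP 1.37 ± 0.23, 0.000136), and the receptor gene Ifngr1 64.0, 105 and 116 CPM in them (HSL against AP -0.72 ± 0.10, 2.04e-05).

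Endosomal genes that prepare class II peptides were mixed too, with 2 of 8 higher and 3 lower in AP libraries set against basal ones, 3 higher and 2 lower in HSL libraries set against basal ones, and 2 higher and 1 lower in HSL than in AP libraries. Of all genes, 44.7%, 58.4% and 39.9% were called there. With the block, 5 were lower in AP against basal libraries (28.4% of all genes lower), and 3 were higher and 2 lower in HSL against AP libraries (50.8% of all genes called). Lgmn, an endosomal protease, averaged 57.1 CPM in HSL, 30.8 in AP and 42.8 in basal libraries (HSL against AP 0.89 ± 0.14, edgeR adjusted p = 5.82e-05), in the same order as H2-DMa. Ctsl, cathepsin L, averaged 177, 403 and 1040 CPM in HSL, AP and basal libraries, with 30.4% of its exon length shared with other genes (HSL against basal -2.55 ± 0.40, 2.41e-05). March8, a ubiquitin ligase that lowers surface class II, averaged 159 ± 10 in HSL, 156 ± 7.12 in AP and 102 ± 2.88 CPM in basal libraries (AP against basal 0.61 ± 0.07, 7.78e-07).

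The remaining chain genes of the locus are listed at low levels. H2-Oa is listed at 0, and another annotated gene, BC051537, covers 100% of its span. H2-DMb2, the second H2-DM beta gene, averaged 0.945 CPM in HSL, 0.316 in AP and 2.06 in basal libraries, with its highest HSL value, 5.04 CPM, in sample 1. Of 2 tested accessory genes 0 were called in each comparison by edgeR without the block and by DESeq2 (0 at an unadjusted p under 0.05). By edgeR without the block 44.7%, 58.4% and 39.9% of all genes were called in AP against basal, HSL against basal and HSL against AP libraries. With the block H2-DMb2 was lower in AP and in HSL than in basal libraries (edgeR adjusted p = 0.00012 and 0.00181) and higher in HSL than in AP libraries (0.0434). Without sample 1 and without the block its adjusted p values were 0.00137, 0.0296 and 0.0634 in AP against basal, HSL against basal and HSL against AP libraries. Of 5 tested genes for costimulation and checkpoint ligands, 3 were lower in AP than in basal libraries (23.1% of all genes lower), 1 was lower in HSL than in basal libraries (30.6%) and 1 was higher in HSL than in AP libraries (19.8% higher). With the block, 2 were lower in HSL against basal libraries (35.5% of all genes lower). Cd40, the receptor for T cell help, averaged 1.66 CPM in HSL, 0.371 in AP and 1.36 in basal libraries (HSL against AP 2.16 ± 0.42, edgeR adjusted p = 0.000502), again in the order of H2-DMa. Icosl, a costimulatory ligand, averaged 1.52, 0.927 and 5.51 CPM in HSL, AP and basal libraries (AP against basal -2.57 ± 0.50, 0.000389).

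Class I presentation genes, a neighbouring system for peptides made inside the cell, were mostly higher in HSL libraries. Of 12 tested, 3 were higher and 1 lower in AP libraries set against basal ones, where 44.7% of all genes were called. In HSL against basal libraries 7 were higher and 1 lower, where 58.4% of all genes were called and 27.8% called higher, and in HSL against AP libraries 7 were higher and 1 lower, where 39.9% were called and 19.8% called higher. With the block 10 were higher and 2 lower in HSL against basal (31.8% of all genes higher), 10 higher and 1 lower in HSL against AP (25.6%), and 3 higher and 1 lower in AP against basal libraries (55.1% of all genes called). Psmb8, a subunit of the immunoproteasome, averaged 91.6 CPM in HSL, 46.0 in AP and 19.9 in basal libraries, with 55.5% of its exon length shared with Gm20496 (HSL against basal 2.2 ± 0.23, edgeR adjusted p = 1.75e-07). Tap2, a chain of the peptide transporter and a neighbour of the class II genes on chromosome 17, averaged 742, 315 and 103 CPM in HSL, AP and basal libraries, with 57.4% of its exon length shared with other genes (HSL against basal 2.85 ± 0.32, 6e-07). H2-D1, a class I heavy chain, averaged 2350 ± 548, 1660 ± 928 and 1540 ± 888 CPM in HSL, AP and basal libraries and did not pass in any comparison without the block. With the block it was higher in HSL than in basal (edgeR adjusted p = 0.00128) and AP libraries (0.00552).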

How the data were processed

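RNA of 18 sorted libraries, 6 per population, was prepared per the labels' protocols with the SMART-Seq v4 kit (2 ng RNA input) and Nextera XT (150 pg cDNA input), neither of which keeps strand. The authors deposited raw read counts per Ensembl gene, on GRCm38 per the submitters' processing notes; no source used here names the aligner or counter. Of 52636 identifiers 52489 matched GENCODE M21. Genes that overlap others can be listed at 0, as B2m and H2-Oa are.

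Counts were fitted over all 18 libraries with edgeR 4.0.16 (R 4.3.3; TMM factors, filterByExpr with a minimum count of 10, robust quasi-likelihood test, Benjamini-Hochberg adjustment over 16471 genes, threshold 0.05), with no sample term. Alternatives were the sample number as a block, each sample left out, samples 1 to 3 or 4 to 6 alone, total counts for scaling, no filter, DESeq2 1.42.0 and the mean log2 CPM of Ptprc and Laptm5 as a term. Same-numbered libraries correlated in their deviations from the population means at 0.19 to 0.69 in 18 pairs, and the number comes from the titles. Pairs of different numbers had a median of -0.075, but some stood above 0.19. HSL sample 6 correlated at 0.3 with AP sample 4 and at 0.24 with AP sample 6. Ratios used a pseudocount of 0.1 CPM and exact permutation tests (924 splits) in SciPy 1.17.1. The fit without a sample term was tested on simulated counts, with 100 genes changed 2-fold and 100 changed 4-fold per comparison. It called 40 to 45% of the 2-fold and 73 to 77% of the 4-fold changes, and 1.67 to 5.65% of its calls were false. The simulated libraries had no effect shared by a sample number and no deviating sample 1, so those features were not tested. No pair of libraries agreed within sampling noise. Floors of 3 counts cover counting error only.

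The members and lists were chosen with earlier results of these data known. Genes named besides the members come from, per list, the most abundant gene, up to 3 called genes with the smallest adjusted p per comparison and the most abundant one not called, and the 10 genes most like the members' profile by each measure, at a mean of 5 CPM or more; not every gene this allows is printed, and those printed were picked with their values known. Ccr7, Itgax, Flt3 and Xcr1 were named for their direction in HSL against basal libraries.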

Additional observations from a re-analysis of the deposited data

Results flagged for a closer look

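In 8 of 27 groups of 6 libraries (9 genes in 3 populations), 1 library stood apart by Dixon's test at its 95% critical value. The test was run on CPM without a log scale. Its chance rate of about 1 in 20 groups holds for normally distributed values only. CPM spread up to 86.3-fold within a group (H2-Aa in HSL), and the genes are not independent, so the 8 flags cannot be set against that rate. HSL sample 1 was the highest of 6 for Cd74 (612 CPM, next 115), H2-Aa (179, next 34.8), H2-Ab1 (308, next 66.9), H2-Eb1 (160, next 25.6) and Ciita (0.265, next 0.0968). The same library was the highest for Ptprc (17.7 CPM, next 3.51) and Laptm5 (38.8, next 12.1). Basal sample 6 was the highest of 6 for H2-DMb1 (49.6 CPM, next 29.8).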

How the results depend on the processing

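Of the members' single values, H2-DMa in HSL against AP lost its call only with samples 1 to 3 alone (adjusted p over 16 alternatives 3.64e-08 to 0.0779). Members called in AP against basal libraries numbered 5, but 0 to 4 with a sample left out, 0 with samples 1 to 3, 3 with samples 4 to 6, 1 with total counts, 3 with no filter, 0 with the leukocyte term, 1 with that term without sample 1 and 0 with it and the replicate block. In HSL against basal libraries they numbered 1, but 5 with the replicate block, 1 to 5 with a sample left out, 0 with samples 1 to 3, 5 with samples 4 to 6, 2 with the leukocyte term, 5 with the block or that term without sample 1, and 0 with both. In HSL against AP they numbered 1, and 0 with samples 1 to 3. The block kept 5 in AP against basal and 1 in HSL against AP.

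All genes called numbered 7356, 9621 and 6571 in AP against basal, HSL against basal and HSL against AP, and 3718, 5674 and 1491 with samples 1 to 3, 4432 in AP against basal with the block and leukocyte term, and 6205 to 8352, 8546 to 10651 and 5207 to 7898 with a sample left out. Total counts moved the split in AP against basal from 3544 higher and 3812 lower to 4279 and 3147, and in HSL against AP from 3256 and 3315 to 2234 and 4043.

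In HSL against AP the log2 fold changes of Cd74, H2-Aa, H2-Ab1 and H2-Eb1 turned to -1.29, -1.19, -1.47 and -0.95 with samples 4 to 6, to -0.62, -0.49, -0.51 and -0.55 with the block without sample 1, to -0.62, -0.46, -0.63 and -0.40 with the leukocyte term without sample 1, and to -0.16, -0.02, -0.01 and -0.01 with block and term. The term alone gave -0.18, -0.04 and -0.14 for the first 3, and the block -0.02 for Cd74. With a sample left out they ran from -0.30 to 1.43, -0.17 to 1.48, -0.47 to 1.41 and -0.21 to 1.51. H2-DMb1 in HSL against basal (0.01) gave -0.11 to 0.24 with a sample left out, -0.12 with samples 4 to 6, -0.01 with total counts, no filter or DESeq2, -0.10 with the leukocyte term, -0.21 with it without sample 1 and -0.04 with the block without sample 1.

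With the pan-leukocyte list as the denominator, 5, 6 and 1 ratio tests passed in AP against basal, HSL against basal and HSL against AP, and 0 once Lcp1 and Ptpn6 were left out of it (chosen after seeing the data, as were the combined settings above). That list turned the ratio to -0.47 for H2-DMa, -0.21 for H2-DMb1 and -0.98 for Ciita in AP against basal, to -0.11, -1.11 and -2.30 in HSL against basal, and to -0.89 for H2-DMb1 in HSL against AP; without Lcp1 and Ptpn6 Ciita stood at 0.0 there. The Ciita ratio is set by the pseudocount where it has 0 reads, so its turns say nothing of Ciita. Without sample 1 the H2-Ab1 ratio in AP against basal was 0.15 (-0.05 with it, leave-one-out). The causes were not tested. Samples 1 to 3 and 4 to 6 are runs of consecutive file identifiers; no label records a batch. Low counts limit Ciita, at 30 reads or fewer, and depth and its exon overlap with Dexi cannot be told apart as reasons.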
